A study of Mus musculus with 4 samples.

Results

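The genes described here are 10 immediate early genes of the mouse, namely the 4 members of the FOS family (Fos, Fosb, Fosl1 and Fosl2), the 3 members of the JUN family (Jun, Junb and Jund), and Egr1, Ier2 and Ier3. They were chosen by gene symbol from the 55421 genes of the count table, and each symbol was found there once. Polyadenylated RNA came from primary spermatogonia (SSC cultures) made from neonatal testes of CD1 mice and grown on a layer of irradiated mouse embryonic fibroblasts. The Veh group stayed in complete SSC medium, and the NRRA group received nutrient restriction medium, mainly a balanced salt solution without amino acids, plus retinoic acid (RA). The labels describe all cultures as supplemented with N2 and with bFGF and GDNF, each at 10 ng/ml. By the study's list of media, the nutrient restriction medium is a dilution of SSC medium in salt solution with no growth factor added back, so GDNF, FGF2, serum and the other supplements were diluted in NRRA too. That list also gives GDNF at a higher concentration in complete medium than the labels do. Each group had 2 libraries. Because RA, the loss of amino acids and the dilution of growth factors were given together, their effects on a gene cannot be told apart. The comparison addresses whether a response to NRRA, described by the study mainly in a hybrid background, also occurs in CD1 cultures. The study describes its sequencing replicates as biologically independent, while the labels do not tie a library to a culture or a mouse. The p-values rest on the spread between these 2 libraries a group, drawn towards that of all tested genes. Each of the 10 genes was tested on 24.8 degrees of freedom, of which its own libraries gave 2.

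Immediate early genes are transcribed within minutes of a growth factor, serum or stress signal, without new protein synthesis, and their transcripts are usually short-lived. The FOS and JUN proteins carry a basic leucine zipper and join as dimers to form activator protein 1 (AP-1). A FOS protein needs a JUN partner, whereas JUN proteins can also pair with each other, with ATF proteins and with BATF proteins. Egr1 encodes a zinc finger transcription factor, Ier2 a nuclear protein, and Ier3 a protein linked to cell survival and ERK signalling. Cultured spermatogonia receive GDNF and FGF2, which act through receptor tyrosine kinases and the MAP kinase cascade, a pathway that induces many genes of this class. The study describes treatments of days rather than minutes, so the values are levels after sustained culture. The 4 libraries hold no series of times, so a rapid induction was not followed.

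The sequences next to the transcript starts are shown for 5 genes whose window lies just upstream of the counted transcript. They comprise a rise (Fos, the least firm of the 10 changes), moderate falls (Fosb, Jun and Junb) and the largest fall (Ier3). Jund, which rose most, is not among them. RefSeq windows of GRCm38.p6 were available for 7 of the 10 genes, and Fosl1, Egr1 and Ier2 had none. The stretches below hold 120 bases, run 5′ to 3′ towards the gene, and end before the annotated exons. Capitals mark the letters searched for that lie within them, TGACG (the core of the cAMP response element, CRE), TATAAA and CCAAT, read on either strand.
Fos (chr12:85473770-85473889, plus strand): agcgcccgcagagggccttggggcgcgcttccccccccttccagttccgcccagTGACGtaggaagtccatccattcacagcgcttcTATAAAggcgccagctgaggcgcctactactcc
Fosb (chr7:19310052-19310171, minus strand): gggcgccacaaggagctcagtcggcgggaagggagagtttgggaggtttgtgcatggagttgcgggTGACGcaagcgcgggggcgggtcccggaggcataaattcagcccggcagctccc
Jun (chr4:95052223-95052342, minus strand): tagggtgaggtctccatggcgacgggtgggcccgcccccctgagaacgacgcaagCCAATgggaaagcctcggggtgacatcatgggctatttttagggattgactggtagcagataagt
Junb (chr8:84978749-84978868, minus strand): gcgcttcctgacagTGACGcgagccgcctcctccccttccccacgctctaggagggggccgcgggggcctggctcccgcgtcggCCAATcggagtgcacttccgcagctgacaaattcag
Ier3 (chr17:35821564-35821683, plus strand): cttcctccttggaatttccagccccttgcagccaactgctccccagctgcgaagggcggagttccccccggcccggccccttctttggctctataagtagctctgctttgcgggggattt
Within the 250 bases before the RefSeq start, TGACG was present in Fos, Fosb and Junb, that is 3 of the 7 genes with a window, and in 17.8% of the 32851 distinct RefSeq windows. Fos held it at positions -129 and -66 from the start, Fosb at -60 and Junb at -106. TATAAA was found in Fos, at -33, and in 12.4% of all windows. CCAAT was found in Jun at -65, in Junb at -36 and in Ier3 at -244 and -175, against 33.8% of all windows. The AP-1 site TGACTCA (4.46% of all windows), the full CRE TGACGTCA, which contains TGACG (1.55%), the EGR site GCGTGGGCG (0.536%), the CArG box of the serum response element (1.47%) and the retinoic acid response element core AGGTCA (14.0%) were in none of these 7 windows. No searched letters were in the windows of Jund and Fosl2. The RefSeq start lies 1210 bases upstream of the counted transcript's start in Jund and 671 bases inside the transcript in Fosl2, so neither window lies at the counted start. A match describes these letters only, and the 3 genes with TGACG did not move together, since Fos was higher and Fosb and Junb were lower in NRRA.

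A second sequence feature of this gene class is the AU-rich element in the 3′ untranslated region, known for short-lived transcripts. The nonamer TTATTTATT occurred in Fos and Fosl2 and in 7.94% of the 15136 tested genes with an annotated 3′ untranslated region. It is shown here with its neighbouring bases, on the transcript strand, with the nonamer in capitals.
Fos: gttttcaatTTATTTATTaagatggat
Fosl2: tttattttaTTATTTATTttaaatgtt
The shorter core ATTTA was present 8 times in Fosl2, 5 times in Ier3, 4 times in Fos and in Jun, and not in Ier2. At least 1 such core was present in 68.8% of the tested genes with an annotated 3′ untranslated region. The longest annotated transcript of Jun, Junb, Jund and Ier2 has a single exon, which 6.23% of the tested protein-coding genes share.

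**Figure D1:**
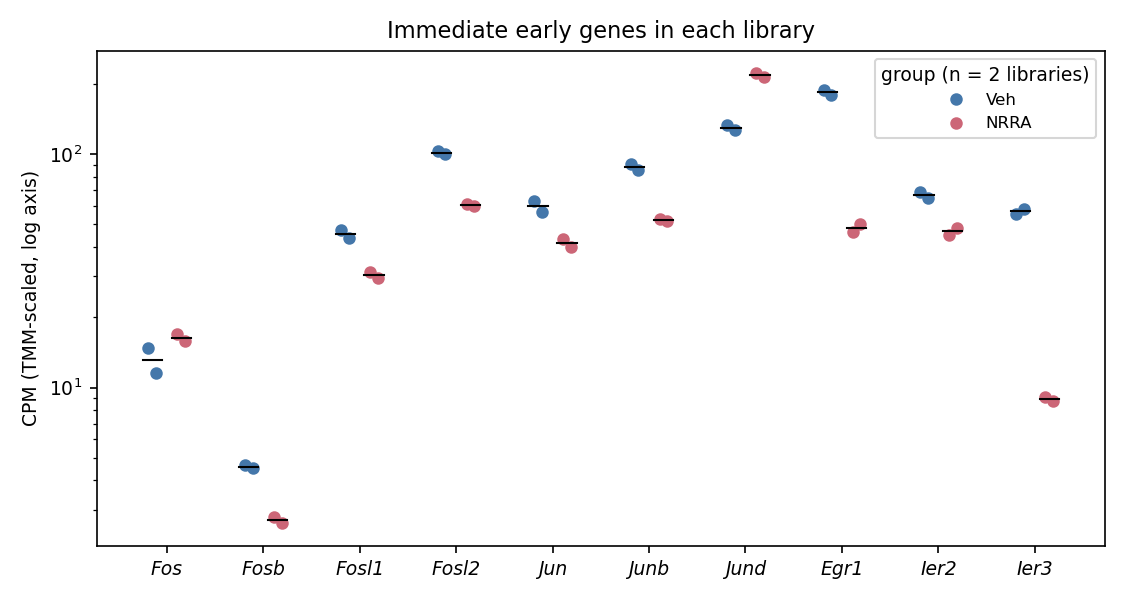
CPM values (counts per 1000000 of the TMM-scaled library size, log axis) of the 10 genes in each of the 2 Veh (blue) and 2 NRRA (red) libraries, with the group mean as a black line. Jund and Fos lie higher in NRRA and the other 8 genes lower, and the groups do not overlap for any of the 10.

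Of the 10 genes, 8 were lower and 2 were higher in NRRA than in Veh (quasi-likelihood test of edgeR, p adjusted by Benjamini-Hochberg over all genes tested, under 0.05). All 10 passed the filter on low counts. Ier3 and Egr1 fell the most, to 15.7% and 26.3% of their Veh mean. Jund, the JUN family gene with the highest level, rose to 168% of its Veh mean. The changes stand against a wide background, since 56.4% of the 20232 tested genes passed the same test, 27.9% as higher and 28.4% as lower. A change of at least 2-fold was called for 2 of the 10 genes and for 13.3% of all tested genes. In all 10 genes the NRRA libraries lay on the same side of both Veh libraries, which was so for 76.7% of the tested genes. The median log2 fold change of the 10 genes was -0.67, and that of all tested genes was 0.00029.

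Some values of the whole series bear on these results. The libraries held between 28022265 and 31604769 counts, and 3 counts corresponded to 0.0921 to 0.111 CPM. The 10 genes took 0.0745% and 0.0708% of all counts in the Veh libraries against 0.0548% and 0.0536% in the NRRA libraries. The RA target Stra8, a gene needed for meiotic initiation, was at 9.62 and 10.1 CPM in Veh against 1864 and 1853 CPM in NRRA. Kit, a receptor of differentiating spermatogonia, rose by 5.59 on the log2 scale, and Zbtb16, a factor of undifferentiated spermatogonia, fell by 2.43 (adjusted p = 6.42e-33 and 3.85e-28, edgeR). The libraries hold RNA of spermatogonia and of fibroblasts, and fewer cells of a type and less RNA per cell cannot be told apart. Of 20 fibroblast markers 15 were lower and 3 higher in NRRA, and their summed level fell from 11797 and 11693 CPM to 9215 and 9029 CPM. Among all tested genes 28.4% were lower. Fn1, the fibronectin gene, made up more of that sum than any other marker and of its fall as well, and without it the sums were 5654 and 5607 CPM in Veh against 4854 and 4678 CPM in NRRA. None of the 20 was at 0 in any library. Of 12 germ cell markers 6 were higher and 5 lower (27.9% and 28.4% of all tested genes), with sums of 2480 and 2531 CPM in Veh against 2822 and 2816 CPM in NRRA. Of 20 markers of other testis and blood cells, 14 passed the filter, with sums of 188 and 208 CPM in Veh against 137 and 142 CPM in NRRA, and Fshr had 0 counts in every library, which allows up to 0.0921 to 0.111 CPM. The Sertoli markers of this list are Fshr, Amh, Cldn11, Sox9 and Wt1. Amh had 1 and 3 counts in Veh against 3 and 2 in NRRA, and Cldn11 1 and 6 against 13 and 9. Neither passed the filter. Sox9, at 27.1 and 29.4 CPM in Veh, and Wt1, at 6.56 and 7.83 CPM in Veh, were detected. The part of these shifts in the changes of the 10 genes was not tested.

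Among the FOS family, Fosl2, Fosl1 and Fosb were lower in NRRA. Fosl2, which encodes FRA-2, lies on chr5:32135801-32157842 (mm10). It had 103 and 99.98 CPM in the Veh libraries against 61.0 and 59.9 CPM in the NRRA libraries. The level in NRRA was 0.596 times that in Veh (95% interval 0.562 to 0.633), a log2 fold change of -0.75 (SE 0.042, adjusted p = 3.32e-14, edgeR). Replicates differed little within a group compared with the gap between the groups.

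Fosl1 encodes FRA-1, which like FRA-2 lacks the strong activation domain of FOS and FOSB. It was at 47.5 and 43.9 CPM in Veh and at 31.3 and 29.4 CPM in NRRA, a log2 fold change of -0.59 (SE 0.061, adjusted p = 6.60e-09, edgeR). The gene lies on chr19:5447547-5455946, and 57.2% of its exonic bases overlap Ccdc85b on the opposite strand. The study's methods describe a stranded preparation, the labels name another kit, and the strand setting of the authors' counting was not given in the sources used here, so reads of the pair could have been mixed. Ccdc85b had counts 1.79 to 1.87 times those of Fosl1 in the 4 libraries, and its own log2 fold change was -0.56.

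Fosb, on chr7:19302696-19310051, was the least abundant of the 10 genes. Its counts were 126 and 134 in Veh against 91 and 79 in NRRA, or 4.65, 4.50, 2.79 and 2.62 CPM. The log2 fold change was -0.75 (SE 0.18, adjusted p = 0.000705, edgeR). The size of the change matched that of Fosl2, while its 95% interval on the fold scale, 0.461 to 0.764, was wider.

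Fos itself, on chr12:85473890-85477273, moved the other way and least firmly of the 10 genes. It was at 14.8 and 11.5 CPM in Veh against 16.9 and 15.8 CPM in NRRA, a log2 fold change of 0.32 (SE 0.10, adjusted p = 0.0103, edgeR). The Veh libraries differed from each other by more than the higher of them differed from either NRRA library. Without Veh replicate 2, the lowest library, the log2 fold change was 0.14 (adjusted p = 0.293, the largest over 11 alternatives), and without NRRA replicate 1, the highest, it was 0.28 (adjusted p = 0.0554). DESeq2 gave an adjusted p of 0.101 for the same counts. A higher level of Fos in NRRA is therefore less certain than the other 9 changes, each of which kept its call under every alternative tried.

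In the JUN family the direction was split. Jund, which encodes the JUN protein usually present in resting cells, had 3608 and 3761 counts in Veh against 7238 and 6435 in NRRA. In CPM these were 133 and 126 in Veh against 222 and 214 in NRRA. Its log2 fold change was 0.75 (SE 0.034, adjusted p = 2.86e-16, edgeR), or 1.68 times (95% interval 1.603 to 1.764). The 2 NRRA libraries lay well above both Veh libraries.

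Jund is on chr8:70698949-70700616, and 52.6% of its exonic bases overlap Gm11175 on the opposite strand. Gm11175 had 2340 and 2417 counts in Veh against 4633 and 4112 in NRRA, which is 0.639 to 0.649 times those of Jund in all 4 libraries. Its log2 fold change, 0.74, was nearly that of Jund. Reads of the pair cannot be told apart here, and the rise belongs to the locus.

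Junb, whose protein often opposes that of Jun on AP-1 sites, lies on chr8:84974484-84978718. It fell from 90.8 and 85.4 CPM in Veh to 52.8 and 51.7 CPM in NRRA, a log2 fold change of -0.75 (SE 0.046, adjusted p = 1.87e-13, edgeR). The size was that of the Jund change with the opposite sign. Prdx2, on the opposite strand, overlaps 7.52% of its exonic bases, had 1.81 to 2.14 times its counts and a log2 fold change of -0.56.

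Jun, on chr4:95049034-95052222, encodes the founding member of the family and a main target of JNK. It fell from 63.2 and 56.3 CPM to 43.4 and 39.9 CPM, a log2 fold change of -0.52 (SE 0.059, adjusted p = 2.88e-08, edgeR). Its antisense neighbour Junos shares 7.28% of the exonic bases of Jun and had 0.0899 to 0.123 times its counts. The fall of Jun was smaller than that of Junb, and their intervals, 0.642 to 0.760 times for Jun and 0.555 to 0.634 times for Junb, did not overlap. The difference between the 2 changes was not tested.

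The 3 genes outside both families all fell. Egr1, on chr18:34859823-34864984, was the most abundant of the 10 in Veh by CPM, with 188 and 179 CPM, and had 46.6 and 50.3 CPM in NRRA. The log2 fold change was -1.93 (SE 0.042, adjusted p = 5.78e-23, edgeR), or 0.263 times (95% interval 0.248 to 0.280). Both NRRA libraries lay far below both Veh libraries.

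Ier3, on chr17:35821684-35822923, showed the largest change of the 10. Its counts were 1508 and 1731 in Veh against 297 and 263 in NRRA, or 55.6, 58.2, 9.12 and 8.74 CPM. The log2 fold change was -2.67 (SE 0.072, adjusted p = 5.03e-21, edgeR), or 0.157 times (95% interval 0.142 to 0.174). Neither Egr1 nor Ier3 shares exonic bases with another annotated gene.

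Ier2, on chr8:84661331-84662852, and Jun fell least among the 8 lower genes, with changes that differed by less than their errors. Ier2 had 68.7 and 64.8 CPM in Veh against 45.2 and 48.4 CPM in NRRA (log2 fold change -0.51, SE 0.052, adjusted p = 3.17e-09, edgeR). The name shared by Ier2 and Ier3 marks how they were found, as early response genes, and their proteins are unrelated.

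**Figure D2:**
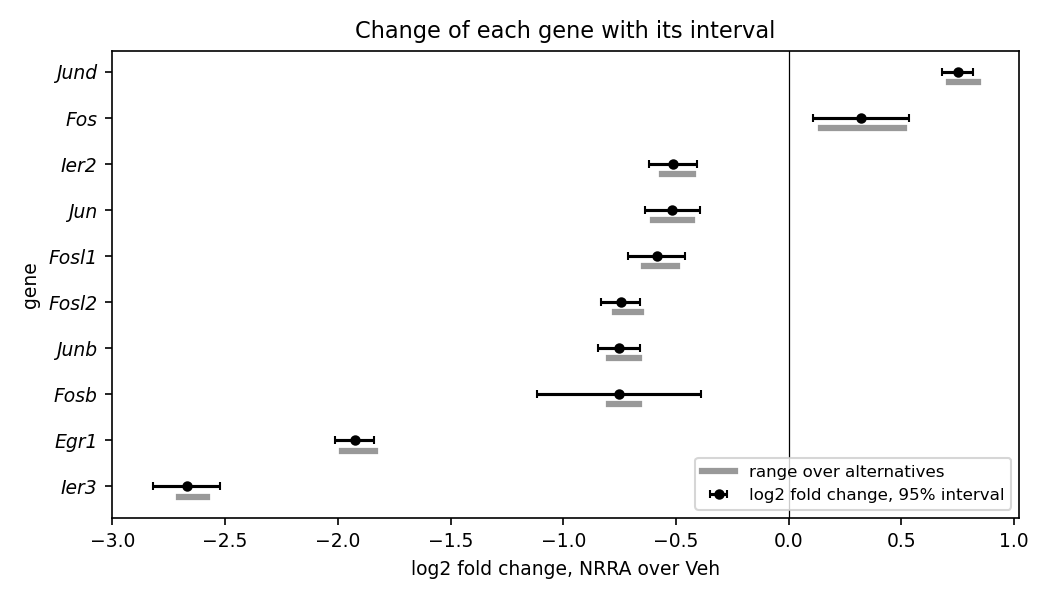
Log2 fold change (NRRA over Veh) of each of the 10 genes with its 95% interval (black, edgeR, n = 2 libraries a group) and, in grey, the range of the estimate over 11 alternative analyses. Ier3 and Egr1 stand apart at -2.67 and -1.93, the other 6 lower genes lie between -0.75 and -0.51, and no range crosses 0.

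To compare levels between genes, CPM values were divided by exonic length (CPM per kb). In Veh the order from the highest level was Jund, Ier3, Ier2, Egr1, Junb, Fosl1, Jun, Fosl2, Fos and Fosb. In NRRA it was Jund, Ier2, Junb, Fosl1, Jun, Egr1, Ier3, Fos, Fosl2 and Fosb. Ier3 went from rank 2 to rank 7 and Egr1 from rank 4 to rank 6, while Jund stayed at the top and Fosb at the bottom. With the longest transcript as length, Ier3 went from rank 2 to 8 and Egr1 from 5 to 6.

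The levels per kb of Jund were 79.8 and 75.8 in Veh against 133 and 128 in NRRA, at the percentiles 97.6 and 99.2 of all tested genes by group mean. Ier3 had 49.2 and 51.4 CPM per kb in Veh against 8.06 and 7.72 in NRRA, and moved from the percentile 95.3 to 64.9. Egr1 had 42.0 and 40.0 CPM per kb in Veh against 10.4 and 11.2 in NRRA, and moved from 93.7 to 71.8. Fosb, at 0.744 and 0.721 CPM per kb in Veh against 0.448 and 0.420 in NRRA, lay at the percentiles 22.5 and 15.3. No pair of neighbours in either order had overlapping library values, but some gaps were narrow. In Veh, Ier2 (lowest library 42.6 CPM per kb) and Egr1 (highest 42.0) lay closer than the replicates of either gene, and so did Egr1 (lowest 40.0) and Junb (highest 39.4). In NRRA the gap between Fos (lowest 6.74) and Fosl2 (highest 6.31) was about that between the Fos libraries. In NRRA Fosl1 (lowest 14.5) and Jun (highest 13.6) were likewise closer than their replicates. In Veh the gap between Fosl1 (lowest 21.6) and Jun (highest 19.8) was about that between the Fosl1 libraries. The order within these pairs is not resolved. With the longest transcript as length, Egr1 and Junb in Veh and Fos and Fosl2 in NRRA switched places, and the other pairs did not.

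The makeup of the JUN family pool shifted towards Jund. Its share of the summed JUN family level per kb was 57.4% and 58.0% in the Veh libraries against 78.5% and 78.6% in the NRRA libraries. The share of Junb went from 28.4% in both Veh libraries to 13.5% and 13.8%, and that of Jun from 14.3% and 13.5% to 8.02% and 7.67%. The summed level of the family was 135 ± 5.99 CPM per kb in Veh against 166 ± 4.70 in NRRA (SD, n = 2), while Jun and Junb together went from 57.0 ± 3.18 to 35.8 ± 1.10 CPM per kb. The Jund values include the overlap with Gm11175 given above.

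In the FOS family Fosl1 held the largest share in each library, 56.9% and 57.5% in Veh against 52.5% and 52.0% in NRRA. Fosl2 held 25.9% and 27.5% in Veh against 21.5% and 22.3% in NRRA, and Fos 15.4% and 13.0% in Veh against 24.5% and 24.2% in NRRA. Fosb stayed between 1.51% and 1.92%. The Fosl1 values include its overlap with Ccdc85b given above, which also enters the sum and the ratio below. The summed FOS level was 39.3 ± 2.47 CPM per kb in Veh against 28.6 ± 1.09 in NRRA (SD, n = 2). Without Fosl1 the sum was 16.8 ± 1.23 in Veh against 13.6 ± 0.414 in NRRA (SD, n = 2), a smaller fall. The ratio of summed JUN to summed FOS level was 3.39 and 3.48 in Veh against 5.78 and 5.87 in NRRA. The overlap of Jund with Gm11175 enters it as well, and without Jund the ratio turned, from 1.44 and 1.46 in Veh to 1.24 and 1.26 in NRRA. The groups did not overlap for either family sum or for the ratio, and these transcript shares say nothing of the amounts of protein or of dimers.

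**Figure D3:**
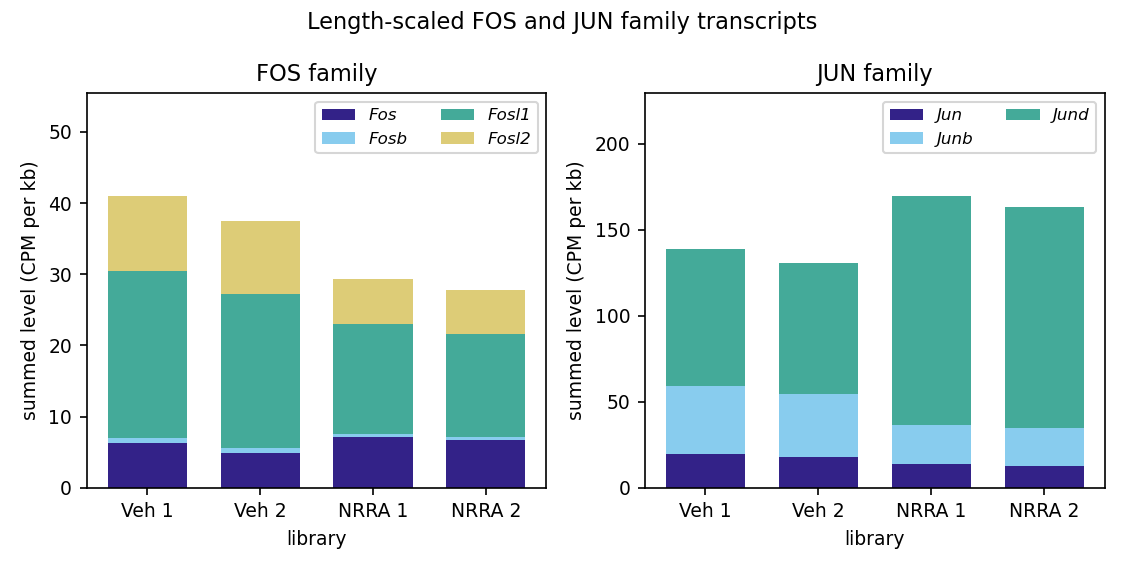
Summed level (CPM per kb of exonic length) of the FOS family (left) and the JUN family (right) in each library, stacked by gene from 0. The FOS sum is lower in NRRA (27.8 and 29.4 against 37.5 and 41.0), and the JUN sum is higher (163 and 170 against 131 and 139) with Jund making up more of it.

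Of 14 genes for other proteins that pair with FOS or JUN, 13 were tested, 4 were higher and 5 lower, with a median log2 fold change of -0.24. The share higher was near that of all tested genes (27.9% higher, 28.4% lower). The median was nearer to 0 without Veh replicate 1 (-0.07), Veh replicate 2 (-0.13), NRRA replicate 1 (-0.09) or NRRA replicate 2 (-0.03). Batf and Batf3, which replace FOS in dimers of immune cells, were the largest falls, from 5.79 and 5.78 CPM to 1.44 and 1.40 CPM (log2 fold change -2.02) and from 6.01 and 6.79 CPM to 2.06 and 1.49 CPM (-1.84). Jdp2, a repressor that pairs with JUN, fell by 0.64 on the log2 scale (adjusted p = 4.96e-05, edgeR).

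Mafa, a large MAF factor known from pancreatic beta cells, rose from 2.43 and 2.69 CPM to 11.5 and 14.3 CPM (log2 fold change 2.33). Atf2, a JUN partner activated by stress kinases, rose by 0.34 on the log2 scale. Without Veh replicate 1, 2 of the 13 genes were higher in place of 4. Atf3, a stress-induced partner of JUN, had 1.11 and 1.38 CPM in Veh against 1.57 and 1.53 CPM in NRRA and was not called (log2 fold change 0.31, adjusted p = 0.370, edgeR); it was named for its role, after its values were seen.

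Of 30 other immediate early genes, most fell as well. Of these, 29 were tested, 21 were lower and 7 higher, and 8 fell and 1 rose by at least 2-fold. Over all tested genes 28.4% were lower, 27.9% higher and 13.3% changed at least 2-fold, so the count of higher genes was near the background. Their median log2 fold change was -0.53. The largest falls were those of the other EGR genes. Egr2 went from 84.5 and 86.4 CPM to 4.45 in each NRRA library (log2 fold change -4.26, SE 0.073), Egr3 from 33.5 and 32.0 CPM to 2.86 and 3.55 CPM (-3.36, SE 0.11), and Egr4 from 193 and 177 CPM to 30.2 and 28.7 CPM (-2.65, SE 0.047). All 4 EGR genes thus fell, with Egr1 the least of them on the log2 scale.

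The largest rises on this list were those of Gadd45b (1.19), a stress-response gene, Nr4a3 (0.97), an orphan nuclear receptor, and Arc (0.57), known from synaptic plasticity. Gadd45b had 6.89 and 7.06 CPM in Veh against 15.3 and 16.5 CPM in NRRA. Nr4a3 had 16 and 14 counts in Veh against 37 and 28 in NRRA, and its call was lost without any 1 of the 4 libraries (adjusted p between 0.0572 and 0.228, edgeR). Without Veh replicate 2, 4 genes of the list were higher in place of 7.

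The negative feedback partners of the EGR proteins fell with them. Nab2, a corepressor of EGR1, went from 218 and 215 CPM to 52.4 and 49.6 CPM (log2 fold change -2.08, SE 0.038), and Nab1 from 71.0 and 69.1 CPM to 28.4 and 27.2 CPM (-1.33, SE 0.054). Of the 9 co-regulators and ubiquitin ligases of AP-1 and EGR proteins, 5 were lower and 3 higher, with a median of -0.17 (-0.08 with library sizes alone), where 28.4% and 27.9% of all tested genes were lower and higher. Cops5, a coactivator of JUN, fell by 0.52 on the log2 scale. Men1, which encodes menin, a binding partner of JUND, rose by 0.38, Fbxw7, a ligase that marks JUN for degradation, by 0.28, and Itch, a ligase for JUN and JUNB, by 0.17. The call of Itch was lost without NRRA replicate 1 (adjusted p = 0.0579, edgeR).

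Of the kinases and factors upstream of these genes, all 25 were tested, 12 were lower and 7 higher, 1 of the lower genes by at least 2-fold, and the median log2 fold change was -0.07. The count higher was close to the 27.9% of all tested genes, with 28.4% lower there. With library sizes alone in place of TMM the balance turned, with 8 lower and 10 higher. Map2k6, an activator of p38, had the largest fall (log2 fold change -1.91) at a low level, from 3.61 and 3.93 CPM to 1.11 and 0.897 CPM. Map2k4, an activator of JNK, fell from 91.8 and 89.9 CPM to 51.2 and 53.2 CPM (-0.80), and Elk3, a ternary complex factor, fell by 0.64.

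Rises on the list were led by Rps6ka5 (0.77), which encodes the kinase MSK1, by Mapk8 (0.69), which encodes JNK1, and by Mrtfb (0.43), a coactivator of SRF. Mapk8 went from 56.0 and 56.8 CPM to 91.1 and 90.9 CPM. The counts do not measure the activity of any of these kinases.

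Genes known to be regulated by AP-1 in other cells were mostly lower. Of 25 listed genes 24 were tested, 19 were lower, 2 higher and 3 not called, and 15 fell by at least 2-fold. The shares over all tested genes were 28.4% lower, 27.9% higher and 13.3% changed at least 2-fold. The median log2 fold change was -1.40. The largest 3 falls were of matrix metalloproteinase genes. Mmp3 went from 109 and 117 CPM to 11.8 and 10.3 CPM (log2 fold change -3.35, SE 0.063), Mmp10 from 5.31 and 5.44 CPM to 0.583 and 0.531 CPM (-3.26, SE 0.24) and Mmp13 from 23.9 and 20.8 CPM to 4.42 and 4.32 CPM (-2.35, SE 0.11). The 2 genes that rose were Ccnd1, which encodes cyclin D1, and Spp1, which encodes osteopontin, each by 0.17 on the log2 scale. Many of the genes on this list are also expressed by fibroblasts, whose marker sums fell as given above. The part of that shift in the changes of this list was not tested. The list holds genes known from other cells, was drawn up with earlier results of these data known, and was not chosen on binding in these cells.

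**Figure D4:**
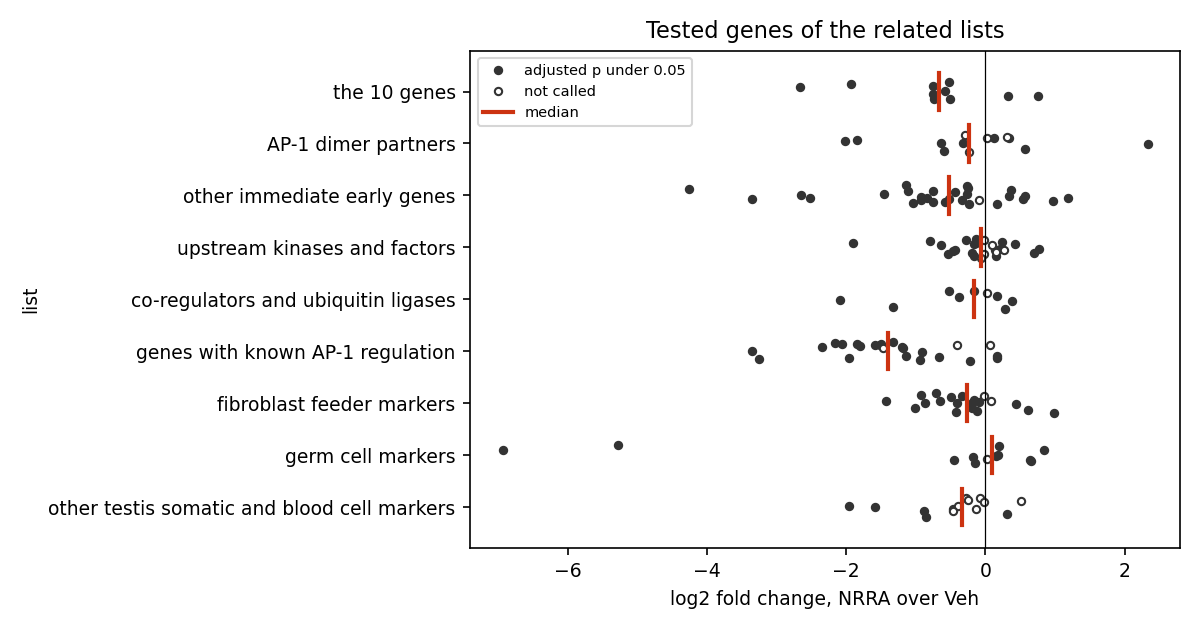
Log2 fold change (NRRA over Veh) of every tested gene in the 10 genes and in 8 related lists. Filled points passed the edgeR test, open points did not, and red bars are medians, which run from -1.40 for genes with known AP-1 regulation to 0.09 for germ cell markers.

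Named markers show that the cell type lists did not move as blocks. Among fibroblast genes Lum (-1.43), S100a4 (-1.01) and Thy1 (-0.92) had the largest falls and Pdgfra (0.98), Col3a1 (0.61) and Fbln1 (0.44) the largest rises in log2 fold change, and the median was -0.27. The call of S100a4 rests on 11 to 29 counts a library and was lost without Veh replicate 1, Veh replicate 2 or NRRA replicate 2 (adjusted p of 0.101, 0.133 and 0.259, edgeR). Among germ cell genes Sall4 (0.84), Tex15 (0.66) and Rhox13 (0.64) had the largest rises, Nanos3 (-5.28) and Tdrd1 (-0.45) fell, and the median was 0.09 (0.06 without Veh replicate 1, 0.16 with at least 10 counts in every library, 0.18 with library size only). Dppa3, a gene of early germ cells, had 230 and 244 counts in Veh against 4 and 0 in NRRA. Of the 14 tested markers of other cells, 1 was higher, 5 were lower and 8 were not called. Over all tested genes 27.9% were higher and 28.4% lower. Pecam1 (-1.96), Sox9 (-1.59) and Myh11 (-0.88) had the largest falls on this list. Wt1, like Sox9 a Sertoli marker, and Cdh5 and Tek, like Pecam1 endothelial markers, were not called. The median of the list was -0.34, or -0.51 without NRRA replicate 1. Star (0.31) rose, and its call was lost without any 1 of the 4 libraries (adjusted p between 0.0548 and 0.108, edgeR).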

How the data were processed

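The deposited file is a single table with raw counts of 55421 genes in 4 libraries, not normalized by the authors. The labels name bcl2fastq, STAR 2.6.1c, featureCounts 1.6.4 and mm10. The annotation release and strand setting were not given in the sources used here. The study's methods describe a stranded kit and the labels name a different one, so reads of genes that overlap on opposite strands could be mixed. Groups came from the sample titles, although the treatment protocol label reads NRRA for all 4 samples. Veh replicates 1 and 2 by title are the columns numbered 2 and 3.

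Counts were tested with edgeR 4.0.16 in R 4.3.3 (filterByExpr, TMM, robust quasi-likelihood F test, NRRA against Veh, 20232 genes, Benjamini-Hochberg adjustment over all of them, threshold 0.05). Standard errors (SE) and 95% intervals were derived from the F statistic. DESeq2 1.42.0, other scalings and filters, a replicate block and the removal of each library were alternatives. CPM values use TMM-scaled library sizes, and levels per kb use the union of exons in GENCODE M21 (GRCm38, 55240 of 55421 identifiers found). Promoter windows are from RefSeq. No library was left out or imputed. Within a group, counts differed by more than sampling noise (chi-square per degree of freedom 2.45 in Veh and 1.99 in NRRA). That added variation was small, with a common coefficient of variation of 2.61% in the edgeR fit. Log CPM values of the 2 libraries correlated at 0.993 in Veh and 0.994 in NRRA. Counting error includes no correction for PCR copies.

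The text names the 10 genes, Stra8, Kit and Zbtb16, and of each list the 3 called genes with the largest rise and the 3 with the largest fall, of which 1 gene is not reported here. Atf3, Fn1, Fshr, Wt1, Amh, Cldn11, Cdh5, Tek and Srf are named outside this rule, after their values were seen. Ccdc85b, Gm11175, Junos and Prdx2 are named because their exons overlap those of Fosl1, Jund, Jun and Junb. The 10 genes and the lists were chosen with earlier results of these data known.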

Additional observations from a re-analysis of the deposited data

How the results depend on the processing

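Over 11 alternative analyses, 107 of 110 log2 fold changes of the 10 genes stayed on the same side of 0 and of the threshold, and none reversed. The 3 that lost their call were all of Fos. DESeq2 gave it 0.32 (adjusted p = 0.101), and without 1 library in turn its log2 fold change ran from 0.14 to 0.51. The number of genes higher in NRRA was therefore 1 in place of 2 with DESeq2 and 1 to 2 without 1 library. The number lower was 8 and the number changed at least 2-fold was 2 in every alternative. Over all genes, 5654 were higher and 5752 lower, 4252 and 4314 with DESeq2, 4996 to 5266 and 5093 to 5352 without 1 library. With library sizes alone in place of TMM they were 6962 and 4593, since the median log2 fold change of all genes moved to 0.090. Under that scaling the median of the upstream kinases and factors turned to 0.024.

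With the length of the longest transcript in place of all exons, levels in CPM per kb were higher for several genes. Fos moved to 7.76 in NRRA. In Veh and NRRA, Fosb moved to 1.21 and 0.716, Fosl1 to 24.5 and 16.3, Fosl2 to 15.5 and 9.25, and Junb to 48.7 and 28.9. The share of Jund in the JUN family moved to 53.6% and 75.7%, and the ratio of JUN to FOS sums to 3.06 and 5.07. In that measure Fosl2 lay above Fos and Ier3 in NRRA and Junb above Egr1 and Ier2 in Veh. Ier3 then went from rank 2 to rank 8 and Egr1 from rank 5 to rank 6.

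The libraries carry replicate numbers that do not pair them by any source used here. The deviations of libraries with the same number correlated at 0.029 over 11326 genes. With the replicate block, 5772 genes were higher and 5836 lower, and 2 and 8 of the 10 genes kept their calls. With 2 libraries a group, changes of genes with few counts, such as Fosb (SE 0.18), are the least precise. Small changes, such as that of Fos, are the least certain.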
